A study of Mus musculus with 2 samples.

Results

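The 10 genes described here encode the elastic fibre and the enzymes that crosslink it: Eln, Fbn1, Mfap2, Mfap5, Mfap4, Fbln1, Fbln2, Fbln5, Lox and Loxl1. They were taken by symbol from the deposited gene tables, which list 27775 features, and all 10 were found there. Levels were read in single cells of lacrimal glands, the tear glands of the orbit, from wildtype CD1 mice, an outbred strain. The E16 library came from glands at embryonic day 16 and the P4 library from glands at postnatal day 4, and each was 1 library of pooled glands with no other treatment named in the labels. With 1 library a stage there was no replicate, so no test between the stages was possible, and every interval given is a 95% interval that covers counting error only.

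Elastic fibres let a tissue stretch and recoil. Tropoelastin, the product of Eln, is secreted and laid down on a scaffold of microfibrils, whose backbone is fibrillin-1 (Fbn1). The microfibril-associated glycoproteins Mfap2 and Mfap5 bind fibrillin, and Mfap4 binds both elastin and microfibrils. Fibulins bridge elastin, microfibrils and the crosslinking enzymes, and fibulin-5 (Fbln5) is needed for elastic fibre assembly. The copper enzymes lysyl oxidase (Lox) and lysyl oxidase-like 1 (Loxl1) oxidize lysines of elastin and collagen, after which the chains crosslink. Fibroblasts, smooth muscle cells and the endothelium of arteries are known sources of these proteins.

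Cells were barcodes with at least 200 detected genes, 259 of 437 in E16 and 406 of 687 in P4, and the libraries shared 0 barcodes. A UMI, or unique molecular identifier, counts 1 transcript caught in a droplet. The E16 cells had a median of 5802 UMIs and the P4 cells a median of 3767. Levels are UMIs summed over the cells of a class and divided by all UMIs of that class, per 1000000 (CPM). Cell classes were clusters named from marker genes, in a clustering that did not use the 10 genes, and a name ending in "-like" rests on those markers alone. Mesenchyme-like cells (97 in E16 and 177 in P4) and epithelial-like cells (88 and 98) were the most frequent, beside 10 and 22 endothelial-like and 16 and 9 smooth muscle-like cells. The smooth muscle-like cluster also had the pericyte markers Rgs5 and Ndufa4l2 among its leading genes. Mesenchyme markers were found in it too, at a summed 9761 CPM in E16 and 15644 in P4, and at least 1 of its P4 cells had 0 smooth muscle marker UMIs. Its name may thus cover a mixture of cells. Mitochondrial genes had 0 UMIs in both libraries, so cell damage could not be read from them. Levels are compared between classes and stages for 1 gene at a time and not between genes.

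The 10 genes had 2013 UMIs in E16 cells and 6974 in P4 cells, or 1176 and 3530 CPM of all cells. Mesenchyme-like cells held 68.3% of these UMIs in E16 and 86.1% in P4. By gene, the mesenchyme-like share in E16 ran from 31.4% for Fbln5 to 89.1% for Mfap5, and in P4 from 24.4% for Fbln2 to 97.1% for Mfap5. In P4, Eln (38.7%) and Fbln2 had more UMIs outside the mesenchyme-like class than in it. The next holders in E16 were smooth muscle-like cells with 11.3% of the 10 genes' UMIs, epithelial-like cells with 10.1% and endothelial-like cells with 8.15%. In P4 the endothelial-like cells came next, with 9.25%. These shares depended on the clustering, and the E16 mesenchyme-like share was as low as 53.1% at a coarser resolution, which named 77 E16 cells mesenchyme-like.

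**Figure D1:**
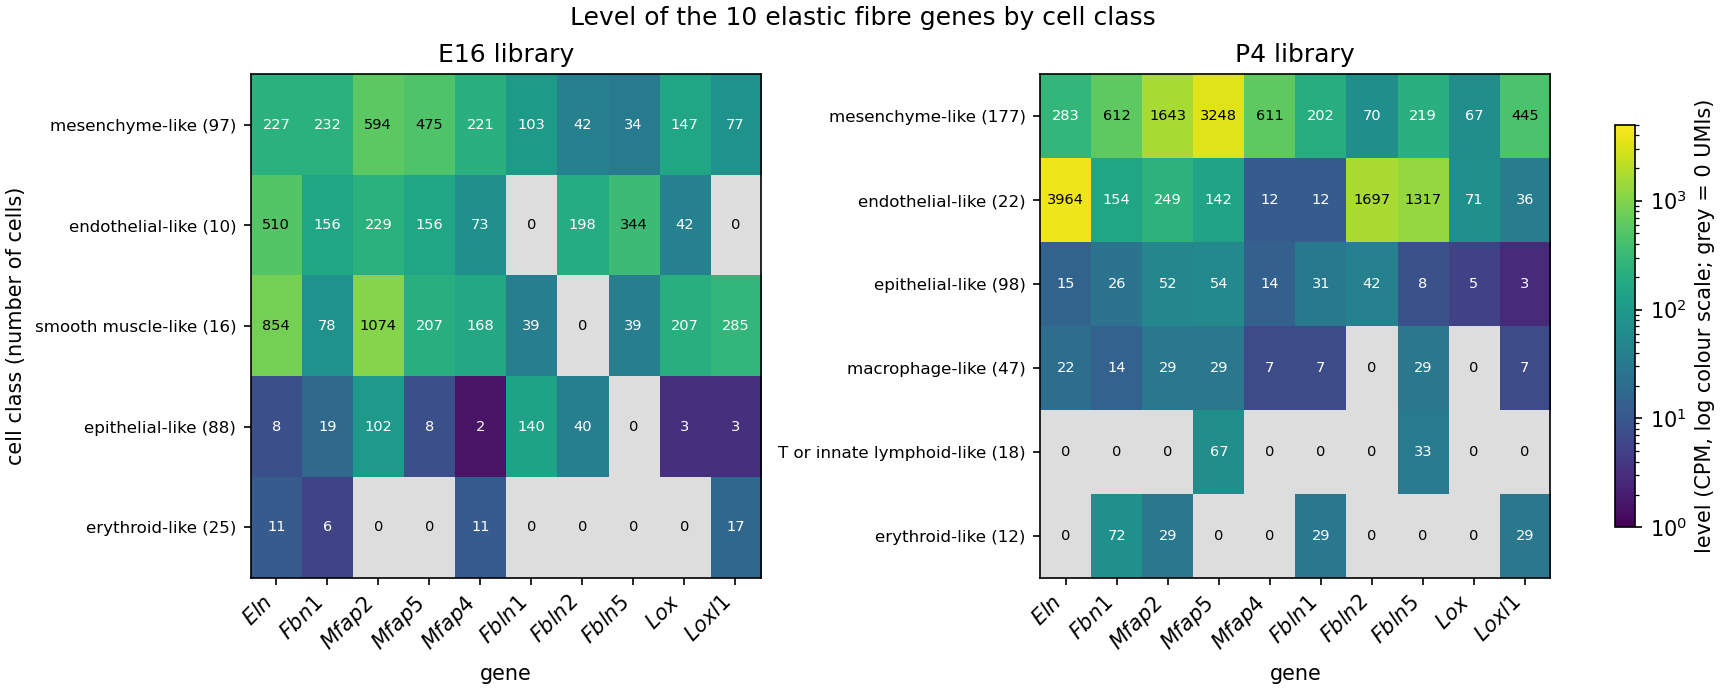
Level of each of the 10 genes (columns, CPM on a log colour scale) in each cell class of at least 10 cells (rows, with the number of cells), in the E16 library (left) and the P4 library (right); grey cells had 0 UMIs. Mfap5 reached 3248 CPM in P4 mesenchyme-like cells, while Eln, Fbln2 and Fbln5 were highest in the endothelial-like row of P4.

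Eln, the gene of the elastic core, lies on chromosome 5 from 134702593 to 134747323 on the minus strand (GRCm38, GENCODE M21). In E16 its level was 854 CPM in smooth muscle-like cells (interval 661 to 1087), 510 in endothelial-like cells, 227 in mesenchyme-like cells, 11.4 in erythroid-like cells and 7.96 in epithelial-like cells. The intervals of the smooth muscle-like and endothelial-like levels overlapped, and the mesenchyme-like level lay below both. In P4 the order was endothelial-like with 3964 CPM, smooth muscle-like with 528 in 9 cells, mesenchyme-like with 283, macrophage-like with 21.6 and epithelial-like with 14.9. Mesenchyme-like cells had 145 Eln UMIs in E16 and 230 in P4, a ratio of levels (P4 over E16) of 1.25 (1.01 to 1.54). This direction was not stable. It turned in 6 of the 14 alternative analyses, which gave log2 ratios from -0.24 to 0.85, and 1 cell held 24.8% of the E16 UMIs.

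Fbn1, the microfibril backbone, lies on chromosome 2 from 125300594 to 125507993 on the minus strand. Its level in mesenchyme-like cells was 232 CPM in E16 and 612 in P4, from 148 and 497 UMIs, a ratio of 2.64 (2.19 to 3.19). In E16 a single cell held 54 of the 148 UMIs, or 36.5%. In P4 the mesenchyme-like level stood above that of every other class of at least 10 cells, the next being the endothelial-like one with 154 CPM. In E16 the intervals of the mesenchyme-like and endothelial-like (156 CPM) levels overlapped. The size of the stage difference depended on which cells were counted, with log2 ratios between 0.24 and 2.26 over the alternatives, all above 0.

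Mfap2 lies on chromosome 4 from 141010418 to 141015984 on the plus strand and Mfap5 on chromosome 6 from 122505845 to 122529290 on the plus strand. The mesenchyme-like level of Mfap2 was 594 CPM in E16 (379 UMIs) and 1643 in P4 (1334 UMIs), a ratio of 2.77 (2.47 to 3.11). In E16, smooth muscle-like cells had the highest Mfap2 level, 1074.5 CPM, but 1 of the 16 cells held 73.5% of those UMIs and the level without it was 310 CPM. Mfap5 had 303 UMIs in E16 mesenchyme-like cells (475 CPM) and 2637 in P4 (3248 CPM), a ratio of 6.84 (6.07 to 7.73), or 2.38 without 1 of the mesenchyme-like clusters (cluster 3). Its level in any other class of at least 10 cells did not exceed 207 CPM in E16 or 142 CPM in P4. No single cell carried the Mfap5 result, since the cell with the most held 11.9% of the UMIs in E16 and 3.94% in P4.

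Mfap4 lies on chromosome 11 from 61485431 to 61488900 on the plus strand, and its span overlaps Mapk7 on the other strand, which had 49 UMIs. The sources used here do not say how the counting used strand. Mesenchyme-like cells had 141 Mfap4 UMIs in E16 (221 CPM) and 496 in P4 (611 CPM), a ratio of 2.76 (2.29 to 3.36). The transcripts sat in few cells. The 10 mesenchyme-like cells with the most Mfap4 held 68.1% of its UMIs in E16, of 97 cells, and 66.3% in P4, of 177 cells. The share of cells with a UMI was near 38% at both stages (38.1% and 37.9%), but the E16 cells were deeper. With each cell thinned to 1500 UMIs it was 20.8% and 22.5%, and at 3000 UMIs 23.7% and 29.3%, with overlapping intervals. The higher P4 level of Mfap4 came with more UMIs in the cells that had any, and the share of such cells did not differ beyond counting error. Of the 496 P4 UMIs, 398 were in 1 mesenchyme-like cluster (cluster 3).

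The 3 fibulin genes differed in the classes that held them. Fbln1 lies on chromosome 15 from 85205949 to 85286535 (plus strand), Fbln2 on chromosome 6 from 91212455 to 91272540 (plus strand) and Fbln5 on chromosome 12 from 101746565 to 101819055 (minus strand). Fbln5 was found mainly in endothelial-like and mesenchyme-like cells, and Fbln1 in mesenchyme-like and E16 epithelial-like cells. A promoter window is shown for Fbln5 and for Fbln1, because of 8 windows examined only these 2 lay clear of annotated exons. Each is the 250 bases before a RefSeq transcript start (GRCm38.p6), 5′ to 3′ on the strand of the gene, chr12:101819120-101819369 for Fbln5 and chr15:85205699-85205948 for Fbln1, with CCAAT boxes (CCAAT) and GC boxes (GGGCGG), on either strand, in capitals.
Fbln5: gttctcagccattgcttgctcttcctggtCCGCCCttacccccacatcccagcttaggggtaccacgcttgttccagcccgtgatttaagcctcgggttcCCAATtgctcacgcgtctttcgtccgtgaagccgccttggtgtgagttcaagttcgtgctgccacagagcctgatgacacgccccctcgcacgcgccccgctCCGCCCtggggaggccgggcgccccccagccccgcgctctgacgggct
Fbln1: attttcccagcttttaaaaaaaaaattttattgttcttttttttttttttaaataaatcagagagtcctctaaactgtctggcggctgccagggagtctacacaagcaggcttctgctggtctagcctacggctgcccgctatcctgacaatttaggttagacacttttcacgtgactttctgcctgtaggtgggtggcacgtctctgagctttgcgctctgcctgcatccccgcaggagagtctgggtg
The Fbln5 window was 65.2% G and C with 21 CpG pairs, and the Fbln1 window 46.4% with 7, where the median over all 32851 such windows was 52.4%. Fbln5 had 2 GC boxes and 1 CCAAT box, motifs found in 32.7% and 33.8% of all windows, and Fbln1 had 0 of either. Both had 1 E-box (CANNTG, not capitalized), as 66.2% of windows had at least 1, and neither held TATAAA (12.4% of windows), CATTCC (12.6%), CCGGAAG (6.91%) or TGANTCA (6.75%). These matches describe letters in the window and not sites of binding. The RefSeq table gave windows for 5 of the 10 genes, and 2 of the 8 windows lay clear of annotated exons, which are the 2 printed. The contrast depended on the window. The other Fbln5 window had 49.6% G and C, 6 CpG pairs and 0 GC or CCAAT boxes. The other Fbln1 window had 62.4% G and C, 14 CpG pairs, 1 GC box and 0 CCAAT boxes. The bases after the start of the printed Fbln5 window were not found in an annotated Fbln5 transcript, while those of its other window were.

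Fbln5, whose protein binds tropoelastin and Loxl1, had 22 UMIs in E16 mesenchyme-like cells (34.5 CPM) and 178 in P4 (219 CPM), a ratio of 6.36 (4.07 to 10.4). With each cell thinned to 1500 UMIs the log2 ratio was 3.85, from 2 E16 cells with a UMI, against 2.67 without thinning. In endothelial-like cells its level was 344 CPM in E16 and 1317 in P4, above that of each other class of at least 10 cells at both stages. The E16 level rested on 33 UMIs in 10 cells, of which 1 cell held 21. Fbln2, a fibulin of vessel walls and basement membranes, was also highest in endothelial-like cells, with 198 CPM in E16 and 1697 in P4. Of its 19 E16 UMIs there, 1 cell held 12. Its mesenchyme-like level was low, 42.3 CPM in E16 and 70.2 in P4 from 27 and 57 UMIs, a ratio of 1.66 (1.03 to 2.73). Fbln1, which binds fibronectin and laminin as well as elastin, had 66 UMIs in E16 mesenchyme-like cells (103 CPM) and 164 in P4 (202 CPM), a ratio of 1.95 (1.46 to 2.64).

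In epithelial-like cells Fbln1 went the other way. There it had 88 UMIs in E16 (140 CPM) and 23 in P4 (31.2 CPM), so that its level was 4.49-fold higher in E16 (2.81 to 7.45). In E16 the epithelial-like level overlapped the mesenchyme-like one, and epithelial-like cells held 56.1% of all Fbln1 UMIs of the library. The E16 UMIs were spread over cells. A Fbln1 UMI was found in 42 of 88 E16 epithelial-like cells (47.7%) and 17 of 98 P4 ones (17.3%), or in 19.7% and 6.94% with each cell thinned to 1500 UMIs, and the cell with the most held 6.82%. In E16 the level was 156 CPM in epithelial-like cluster 9 (31 cells, led by Epcam, Perp and Col9a1) and 122 CPM in cluster 2 (49 cells, led by Mia, Fxyd3 and Krt14), with overlapping intervals. As a level of background, erythroid-like cells had 0 Fbln1 UMIs in 25 cells of E16, where 3 counts would be 17.1 CPM, and 28.9 CPM in 12 cells of P4, and P4 macrophage-like cells had 7.20 CPM. The barcodes under 200 genes had 1 Fbln1 UMI in E16 and 3 in P4, or 44.1 and 87.8 CPM without haemoglobin. The P4 epithelial-like level of 31.2 CPM was thus not above all of these background values. Cluster 9 held 31 cells in E16 and 0 in P4, and cluster 10 held 0 and 27, so part of the stage difference cannot be told apart from the change of clusters. Within cluster 2, with 49 and 35 cells, Fbln1 was at 122 CPM in E16 and 65.3 in P4 from 19 and 5 UMIs, 1.86-fold higher in E16 with an interval that held 1 (0.673 to 6.38). Within cluster 6, with 8 and 36 cells, it was at 46.2 and 37.4 CPM from 2 and 14 UMIs, with a wide interval that held 1 (P4 over E16 0.810, 0.186 to 7.34). Mfap2 was also higher over all E16 epithelial-like cells, 102 against 51.6 CPM (1.98-fold, 1.30 to 3.03), but not within cluster 2, where it was at 128 CPM in E16 and 144 in P4 (P4 over E16 1.12, 0.486 to 2.46). Mfap5 was the reverse, 7.96 CPM in E16 and 54.3 in P4 from 5 and 40 UMIs. P4 macrophage-like cells had 28.8 CPM of Mfap5, and the barcodes under 200 genes had 585 CPM in P4 and 0 UMIs in E16 once haemoglobin was left out of the total. The part of free RNA in the epithelial-like Mfap5 level was not tested.

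Lox, on chromosome 18 from 52516067 to 52529867 (minus strand), was the exception among the 10 genes in mesenchyme-like cells. It had 94 UMIs in E16 (147 CPM) and 54 in P4 (66.5 CPM), a level 2.22-fold higher in E16 (1.57 to 3.16). The direction was the same in all 14 alternatives, with log2 ratios (P4 over E16) from -1.45 to -0.99. Each of the 4 mesenchyme-like clusters had a lower Lox level in P4 than in E16, 54.7 against 172 CPM in cluster 1, 88.6 against 1141 in cluster 3 (3 E16 cells), 23.2 against 125 in cluster 4 (7 P4 cells) and 26.9 against 107 in cluster 8. Some of these levels rest on very few counts. The P4 level was from 1 Lox UMI in cluster 4 and 2 in cluster 8, and 1 E16 cell of cluster 3 held 13 UMIs. Loxl1, on chromosome 9 from 58287738 to 58313186 (minus strand), moved opposite to Lox. It had 49 UMIs in E16 (76.8 CPM) and 361 in P4 (445 CPM), a ratio of 5.79 (4.29 to 7.97), or a log2 ratio of 1.79 with each cell thinned to 1500 UMIs. In E16 both enzymes were higher in smooth muscle-like cells than elsewhere, at 207 CPM for Lox, where the interval overlapped that of mesenchyme-like cells, and 285 CPM for Loxl1, where it did not.

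Of the 10 genes, all of which passed the minimum of 30 UMIs over both libraries in mesenchyme-like cells, 6 were at least 2-fold higher in P4 (Mfap5, Fbln5, Loxl1, Mfap2, Mfap4 and Fbn1). The same held for 6.89% of all 5704 genes measured there (393 genes). In the other direction 1 gene, Lox, was at least 2-fold higher in E16, against 13.7% of all genes (780). The median log2 ratio was 1.43 over the 10 genes and -0.18 over all genes. Summed over the 10 genes, the level was 2154 CPM in E16 and 7401 in P4, a ratio of 3.44 (3.24 to 3.65). The plot of stage ratios shows 9 intervals above a ratio of 1 and 1 below. Without the mesenchyme-like cell with the most UMIs of the 10 genes in each library, Fbln1 and Fbln2 also passed 2-fold in P4, and Lox, with a log2 ratio of -0.99, no longer passed in E16. In that setting 7.04% of all genes passed in P4 and 13.6% in E16.

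**Figure D2:**
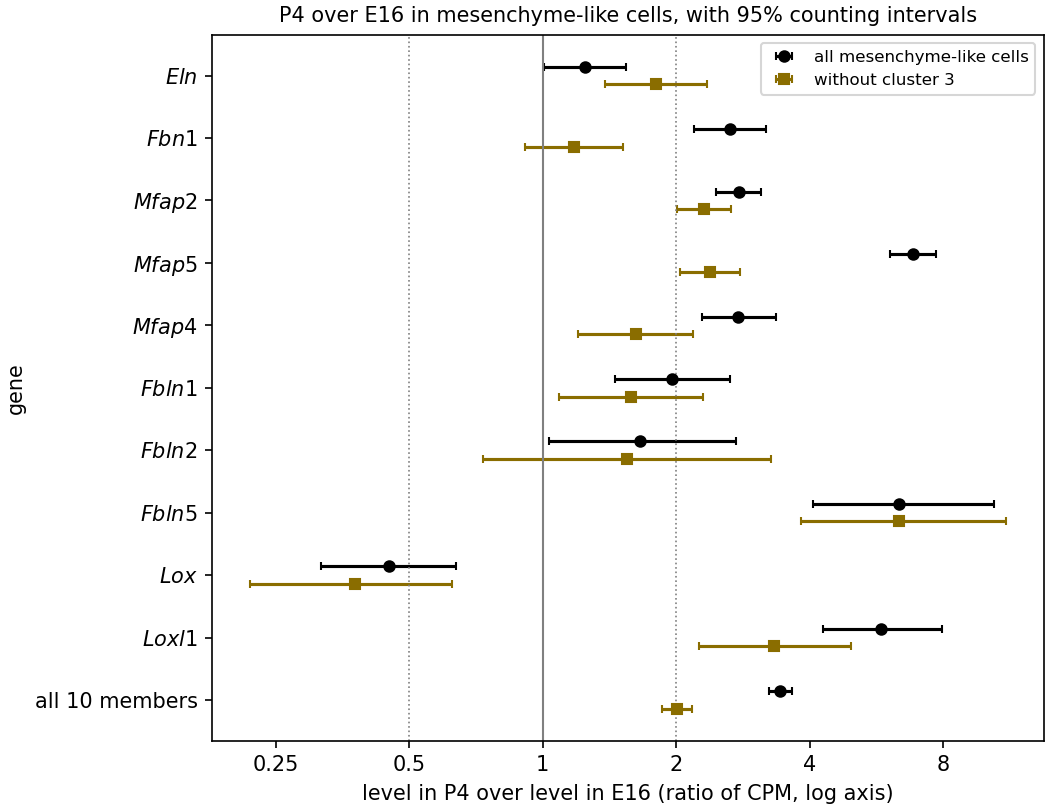
Ratio of the level in P4 over that in E16 (CPM ratio, log axis) in mesenchyme-like cells for each gene and for the 10 summed, with 95% counting intervals, over all mesenchyme-like cells (black circles) and without cluster 3 (brown squares); the solid line marks a ratio of 1 and the dotted lines 2-fold. Lox alone lies below 1, and the ratios of Fbn1, Mfap5, Mfap4 and Loxl1 are smaller without cluster 3.

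The mesenchyme-like cells of the 2 stages fell mostly into different clusters. In E16, 58 of 97 cells were in cluster 4 and 23 in cluster 8, against 13 in cluster 1 and 3 in cluster 3. In P4, 84 of 177 were in cluster 1 and 73 in cluster 3, against 13 in cluster 8 and 7 in cluster 4. Within P4, cluster 1 was led by Lect1, Ndufa4l2 and Serpine2, and cluster 3 by Gap43, Pi16, Cthrc1, Wnt2 and Ly6c1, of which Pi16 and Ly6c1 mark adventitial fibroblasts, the cells of the outer coat of vessels and ducts. Cluster 8 was led by mitosis genes in both libraries, such as Aurkb and Ccnb1 in E16 and Birc5 and Cdc20 in P4. Any stage ratio over the whole class therefore compares different mixtures of cells.

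In P4, cluster 3 had a summed level of the 10 genes of 11591 CPM, 3.89-fold that of cluster 1 (3.62 to 4.18). Mfap5 differed most, with 5768 CPM in cluster 3, where all 73 cells had a UMI, and 618 in cluster 1, a ratio of 9.34 (8.06 to 10.9). The ratio of cluster 3 over cluster 1 was 6.86 for Mfap4 (5.06 to 9.49), 5.13 for Loxl1 (3.71 to 7.25) and 4.36 for Fbn1 (3.38 to 5.70). Fbln2 (2.95), Fbln1 (1.996) and Mfap2 (1.73) were also higher in cluster 3, with intervals above 1. For Eln (1.27, 0.916 to 1.76), Fbln5 (1.26, 0.905 to 1.77) and Lox (1.62, 0.881 to 3.09) the interval held 1. The microfibril genes and Loxl1 were thus at their highest P4 levels in cluster 3, while Eln and Fbln5 did not differ between these clusters beyond counting error. For Fbln5 in cluster 1, 1 cell held 47.5% of the UMIs.

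**Figure D3:**
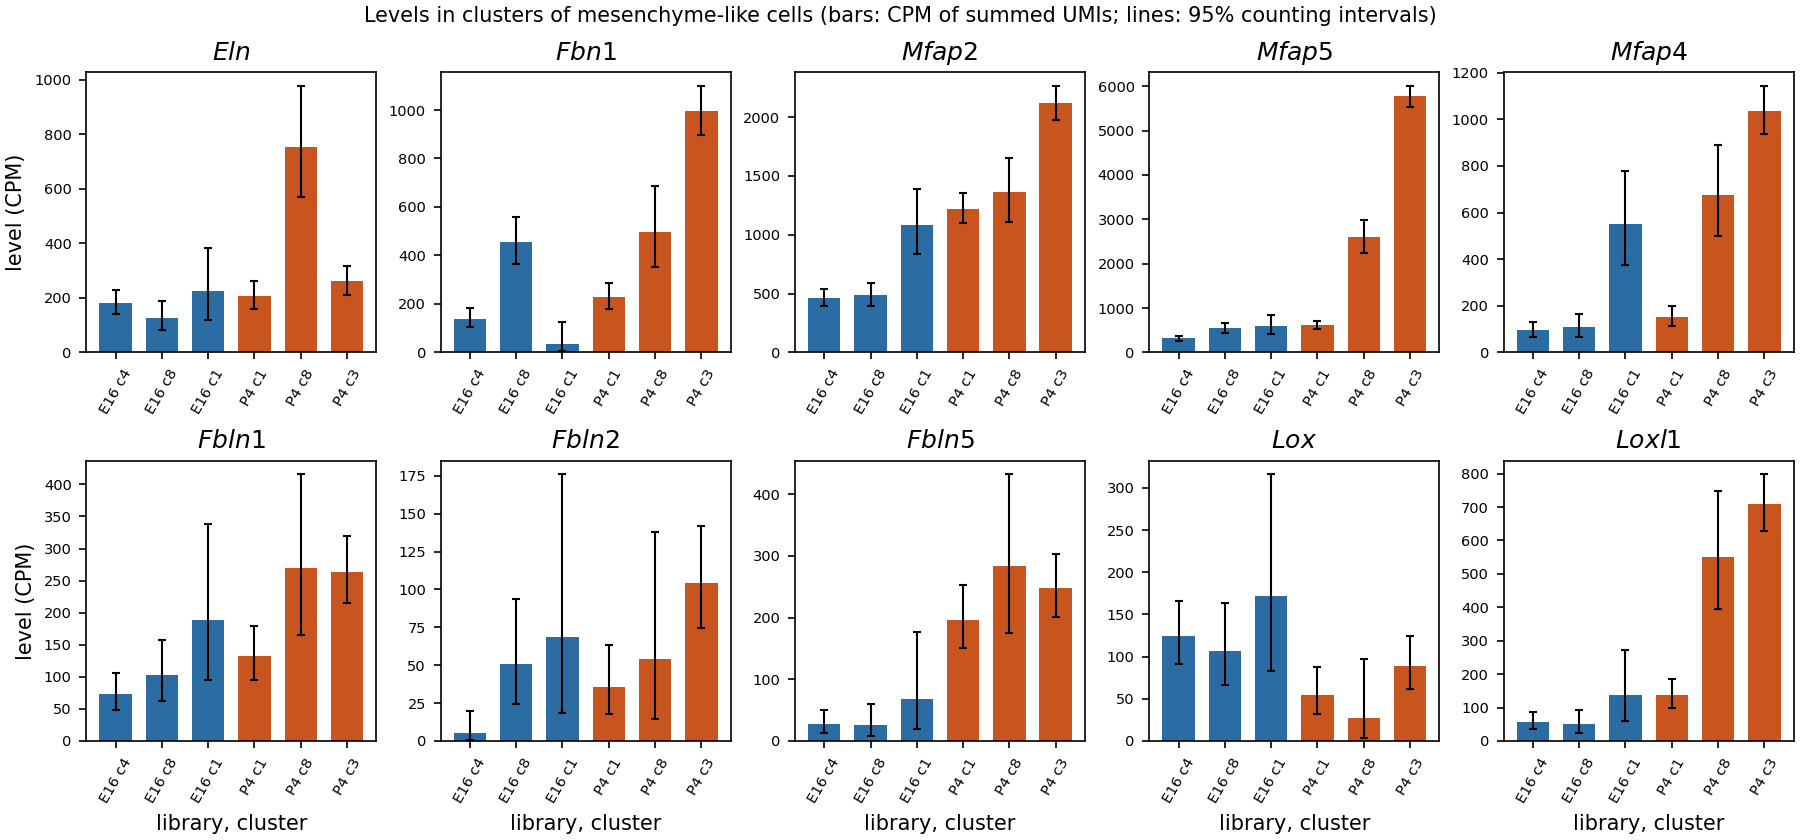
Level of each gene (CPM, linear axis from 0, its own scale in each panel) in mesenchyme-like clusters of at least 10 cells in the E16 library (blue) and the P4 library (orange); c1, c3, c4 and c8 are the clusters, bars are summed UMIs and lines 95% counting intervals. Mfap5, Mfap4, Loxl1 and Fbn1 are highest in P4 cluster 3, and Lox has lower bars in P4 than in E16.

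In all, 5 ways of matching cells between the stages were compared after the values had been seen, and they gave different sizes. Without cluster 3 the summed level was 2.01-fold higher in P4 (1.86 to 2.17), while Fbn1 was at 1.18 (0.913 to 1.52). In that setting 4 genes passed 2-fold in P4 (Fbln5 6.36, Loxl1 3.32, Mfap5 2.38 and Mfap2 2.31), as did 5.56% of all 4852 genes measured. With only clusters 1 and 4 the summed ratio was 1.71 (1.56 to 1.89), and with cluster 4 of E16 against cluster 1 of P4 it was 2.01 (1.81 to 2.24). Within cluster 8, of 23 and 13 cells, it was 3.44 (3.01 to 3.92), with Fbln5 at 11.1, Loxl1 at 10.8 and Eln at 5.91, although 1 P4 cell held 76.8% of that Eln. Within cluster 1, of 13 and 84 cells, it was 0.953 (0.812 to 1.12), Mfap4 was lower in P4 (0.275, 0.172 to 0.445), and Mfap2, Mfap5 and Loxl1 had intervals that held 1. Fbln5 was higher in P4 and Lox lower in each of the 5, with the interval for Lox reaching 1.03 within cluster 8. Within cluster 1 the Fbln5 ratio was 2.85 (1.06 to 10.8) from 4 and 61 UMIs, and 1 P4 cell held 29 of the 61. The matchings share cells, so they are not separate results. The other 8 genes had a ratio below 1, or an interval that held 1, in at least 1 of the 5.

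In E16 the larger clusters were 4 and 8. Cluster 8 had a summed level 1.39-fold that of cluster 4 (1.22 to 1.58). Fbn1 was 3.29-fold higher in cluster 8 (2.30 to 4.73), but 1 cell held 60.7% of its UMIs there. Mfap5 was 1.72-fold higher (1.31 to 2.26), and Fbln2 had 10 UMIs in cluster 8 and 2 in cluster 4. The intervals of the other 7 genes held 1. The 13 E16 cells of cluster 1 had a summed level of 3130 CPM, against 1483 in cluster 4. The 3 E16 cells of cluster 3 had a summed level of 16243 CPM, more than any other mesenchyme-like cluster at either stage, with 1 cell holding 52.9% of the UMIs.

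Shares of cells with a UMI were compared after thinning each cell to 1500 UMIs, because the E16 cells were deeper. This kept 96 of 97 E16 and 173 of 177 P4 mesenchyme-like cells. Mfap2 was found in 57.3% of E16 cells (46.8 to 67.3%) and 88.4% of P4 cells (82.7 to 92.8%), and Mfap5 in 28.1% and 68.2%. Fbn1 was found in 18.8% and 46.2%, Loxl1 in 12.5% and 31.8%, and Fbln5 in 2.08% and 23.1%. Lox was found in more E16 cells, 22.9% against 9.25%. Eln (27.1% and 23.1%) and Mfap4 (20.8% and 22.5%) had overlapping intervals, as did Fbln1 (14.6% and 22.5%) and Fbln2 (4.17% and 9.83%). Without thinning the shares were higher for every gene, for instance 59.8% and 58.2% for Eln and 52.6% and 23.2% for Lox. At the same thinned depth a mesenchyme-like cell held UMIs of a median of 2 of the 10 genes in E16 and 3 in P4, and 7.29% of E16 cells against 28.3% of P4 cells held 5 or more. As background, Eln, Mfap2 and Fbln1 had a UMI in 0 of 25 E16 erythroid-like cells and in at most 1 of 41 P4 macrophage-like cells after thinning, although Mfap2 was found in 2 of 12 P4 erythroid-like cells.

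Endothelial-like cells formed 2 clusters with very different Eln. Cluster 13 (8 E16 and 11 P4 cells) was led by Rgcc and Gpihbp1, a protein of capillary endothelium, and cluster 15 (2 E16 and 11 P4 cells) by Vwf, Mgp and Gkn3. All 11 P4 cells of cluster 15 had Eln, from 9 to 69 UMIs a cell with a median of 22, or 3571 to 20377 CPM. In P4 cells of cluster 13, 6 of 11 had Eln, with at most 5 UMIs. Summed, Eln was at 9644 CPM in cluster 15 and 236 in cluster 13, a ratio of 40.9 (23.1 to 79.9), and the per-cell levels of the clusters did not overlap. In E16 the 8 cells of cluster 13 had 0 Eln UMIs of 87287, and the 2 cells of cluster 15 had 40 and 9.

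Fbln2 and Fbln5 were high in the same cluster. Fbln2 was at 4073 CPM in P4 cluster 15, in 10 of 11 cells, and at 138 CPM in cluster 13, a ratio of 29.6 (14.0 to 75.0). Fbln5 was at 3025 CPM, in 9 of 11 cells, and 197 CPM, a ratio of 15.4 (8.03 to 33.1). From fewer UMIs, Mfap2 (16 and 5 UMIs, 4.87, 1.71 to 17.0) and Mfap5 (11 and 1 UMIs, 16.8, 2.44 to 721) were also higher in cluster 15. Lox had 6 UMIs in cluster 15 and 0 in cluster 13. Fbn1 did not differ beyond counting error (1.31, 0.363 to 4.54), and Mfap4 and Loxl1 had 0 and 1 UMIs in cluster 15. With 11 of 406 cells, P4 cluster 15 held 322 of the 595 Eln UMIs of the library. All endothelial-like cells of P4 together held 56.1% of its Eln, 61.1% of its Fbln2 and 35.9% of its Fbln5.

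**Figure D4:**
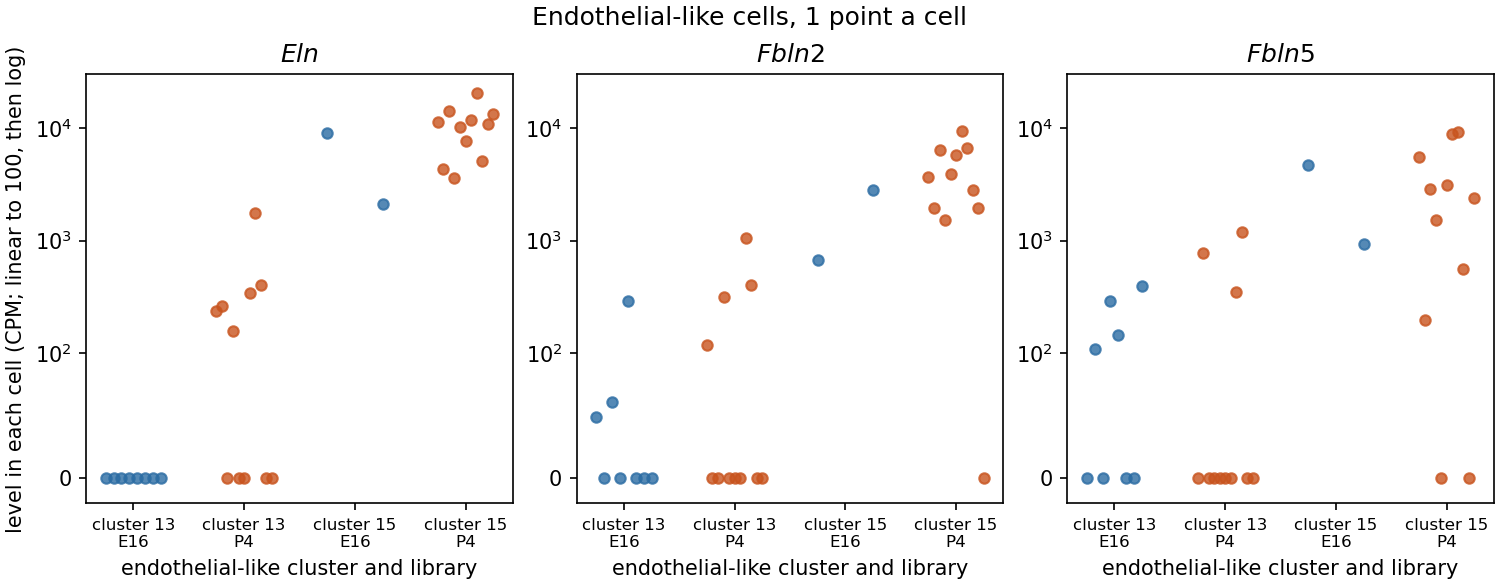
Level of Eln, Fbln2 and Fbln5 (CPM, linear to 100 and then log) in each endothelial-like cell, by cluster and library (E16 blue, P4 orange; sideways position only separates the points). All P4 cells of cluster 15 have Eln above every cell of cluster 13, and the 8 E16 cells of cluster 13 are at 0.

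Markers of other vessel wall cells were low in these cells. In P4 cluster 15 all 10 endothelial markers were detected, at a summed 9644 CPM, a value equal to that of Eln because both had 322 UMIs. Pericyte markers had 0 UMIs for 8 of 8 genes, and smooth muscle markers 6 UMIs over 3 of 8 genes (180 CPM), with Myh11, Cnn1, Actg2, Des and Lmod1 at 0. Mesenchyme markers had 28 UMIs over 8 of 13 genes (839 CPM), close to the 708 CPM of P4 cluster 13, which lacked high Eln. In E16 the endothelial-like Mfap5 rested on 1 cell of cluster 13 that held 14 of 15 UMIs. That cell also had mesenchyme markers at 28827 CPM, against a median of 469 CPM over the 8 cells.

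Between the stages, the endothelial-like level was 7.77-fold higher in P4 for Eln (5.74 to 10.7), 8.58-fold for Fbln2 (5.29 to 14.7) and 3.83-fold for Fbln5 (2.58 to 5.84). These ratios go with the number of cluster 15 cells, 2 of 10 in E16 and 11 of 22 in P4. In E16, 1 of those 2 cells held 81.6% of the endothelial-like Eln UMIs and 63.6% of the Fbln5 UMIs, and the other held 63.2% of the Fbln2 UMIs. A larger share of such cells and more Eln in each of them cannot be told apart with so few.

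Smooth muscle-like cells had a summed level of the 10 genes of 2952 CPM in E16 and 2739 in P4, a ratio of 0.928 (0.713 to 1.20). Eln (854 and 528 CPM) and Mfap2 (1074.5 and 594) were at lower values in P4, and for Mfap2 the interval left out 1 (1.81-fold higher in E16, 1.08 to 3.20). Without the E16 cell that held most of the Mfap2, its direction turned (P4 over E16 1.92, 0.969 to 3.74). Mfap5 was at 207 CPM in E16 and 627 in P4 (3.03, 1.47 to 6.29), but without the cell with the most Mfap2 in each library its ratio was 1.26 (0.397 to 3.49). Of the 83 P4 UMIs of the 10 genes, 1 of the 9 cells held 54.2%, so these P4 values rest mainly on that cell. Glial-like cells, 6 in E16 and 4 in P4, had Fbln5 at 286 and 253 CPM and Mfap2 at 262 and 203 CPM. The Fbln5 levels rest on 2 of the E16 cells and 1 of the P4 cells, while Mfap2 was found in 5 of 6 and 4 of 4. These cells had 0 Eln, Lox and Loxl1 UMIs at both stages.

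The other genes of elastic fibre assembly, taken from lists of related genes, were counted in the same way in mesenchyme-like cells. Of 24 other microfibril and elastic fibre glycoproteins 12 were measured, 3 at least 2-fold higher in P4 and 1 in E16, with a median log2 ratio of 0.41. Efemp1, which encodes fibulin-3, was 4.44-fold higher in P4 (3.42 to 5.83), Fbln7 4.19-fold and Fn1, the gene of fibronectin, 3.15-fold. Mfap3 was 3.54-fold higher in E16. Of 18 other crosslinking enzymes and helpers 13 were measured, 2 at least 2-fold higher in P4 and 0 in E16, with a median of 0.38. Pcolce, which enhances procollagen processing, was 3.26-fold higher in P4 and Loxl3, another lysyl oxidase, 2.96-fold. Bmp1, a protease that activates lysyl oxidase, was 1.99-fold higher (1.36 to 2.97).

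The TGF-beta list, which holds the microfibril-stored growth factors, their receptors and targets, had 9 of 19 genes measured, 1 at least 2-fold higher in P4 and 2 in E16, with a median log2 ratio of -0.35. Over all genes the shares were 6.89% in P4 and 13.7% in E16 and the median -0.18, and with 9 genes such small counts were not told apart from these shares. Postn, the gene of periostin, was 3.42-fold higher in P4, while the receptor genes Tgfbr1 and Tgfbr3 were 3.18-fold and 2.02-fold higher in E16. Of 16 elastin-degrading proteases and their inhibitors 9 were measured, 3 at least 2-fold higher in P4 and 0 in E16, with a median of 0.81. They were the protease genes Ctsl (7.15-fold) and Mmp2 (4.52-fold) and the inhibitor gene Timp2 (2.72-fold), while Timp3 was 1.67-fold higher in E16. Fibrillar collagens and their processing genes had 13 of 14 measured, 6 at least 2-fold higher in P4 and 2 in E16, with a median of 0.62. Col3a1 (2.87-fold), Col1a2 (2.82-fold) and Col1a1 (2.40-fold) were higher in P4, and Col11a1 was 7.38-fold higher in E16.

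Lists that mark the kind and state of the cells also differed between the stages. They are read beside the same shares over all genes, 6.89% in P4 and 13.7% in E16. Of 12 adventitial fibroblast markers 11 were measured and 9 were at least 2-fold higher in P4, led by Ly6a (30.3-fold), Ly6c1 (28.2-fold) and Dpt (12.1-fold), with a median log2 ratio of 2.79. Of 59 cell cycle genes 57 were measured and 36 were at least 2-fold higher in E16, such as Top2a (6.33-fold), with a median of -1.37. Immediate early and heat shock genes, which digestion of tissue can induce, had 0 of 18 measured genes past 2-fold in either direction and a median of -0.09. The part of the cluster makeup and of cycling cells in the stage ratios of the 10 genes was not tested beyond the 5 matchings above.

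For each of the 10 genes, the 3 genes with the most similar levels were sought over 19 pools of cells, each 1 cluster in 1 library of at least 10 cells, by Pearson's r of log2(CPM + 20) among 4606 genes. The pools share 2 libraries, so these values only describe. Eln was most like Meox2 (0.93), Pdia5 (0.89) and Fxyd6 (0.89), and Fbln5 was most like Ramp2 (0.87), Cpq (0.86) and Meox2 (0.86). Fbln2 was most like Lbp (0.88), Cdca4 (0.85) and Hdc (0.84). Mfap2 was most like Rcn3 (0.97), Snhg18 (0.96) and Fkbp10 (0.96), Mfap5 like Thbs3 (0.96), Serping1 (0.95) and Lum (0.93), Mfap4 like Lrrc17 (0.94), Col1a1 (0.94) and Rarres2 (0.93), and Fbn1 like Kdelc2 (0.87), Dpysl3 (0.86) and Tmem100 (0.85). Fbln1 was most like Flywch2 (0.92), Ptn (0.90) and Gpc3 (0.89). Of the enzymes, Lox was most like Shisa4 (0.95), Bgn (0.92) and Rock2 (0.89), and Loxl1 like Thbs2 (0.91), Adamts2 (0.90) and Ccl11 (0.89). Among the 10 genes themselves r ran from 0.03 for Mfap4 and Fbln2 to 0.91 for Mfap4 and Loxl1, and it was 0.88 for Eln and Fbln5.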

How the data were processed

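Pooled glands were digested with an enzyme blend and passed through a strainer, per the labels' protocols, and each stage was barcoded in droplets as 1 library. The authors deposited UMI counts per gene and barcode, whole numbers without normalization. Cell Ranger and build mm10 were used, per the submitters' processing notes. For the version, annotation, strand setting and choice of barcodes nothing was stated (not given in the sources used here).

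From these counts, barcodes with at least 200 detected genes were kept. Depth per cell limits each share and level. Both libraries were clustered together with scanpy 1.11.5 on 2000 variable genes, 20 principal components and 15 neighbours (Leiden resolution 1), leaving out the 10 genes and 2 lists of related matrix genes. Clusters took a class from marker genes, with at least 3 detected, and no doublet caller was run; leaving out the 10% deepest cells was an alternative instead. Levels have exact Poisson intervals, ratios exact conditional ones and shares exact Clopper-Pearson ones. Other genes were named if their interval left out 1, at most 3 a list and direction, ranked by the bound nearest 1. Genes in a stage comparison needed 30 UMIs. The 10 genes, the lists and the markers were chosen with earlier results of these data known. Leaving out cluster 3, the other matchings of clusters and leaving out single smooth muscle-like cells were chosen after seeing the data. The interval script was tested on simulated data, where the 95% intervals covered the true ratio in fewer than 95% of genes in some fold groups. The simulation drew independent counts for each gene. It left out the uneven spread of UMIs over cells, so it cannot show how well the intervals cover where 1 cell holds many UMIs.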

Additional observations from a re-analysis of the deposited data

Results flagged for a closer look

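The stage difference of Mfap2 pointed one way in mesenchyme-like cells and the other way in 2 classes, with log2 ratios (P4 over E16) of 1.47 in mesenchyme-like, -0.98 in epithelial-like and -0.85 in smooth muscle-like cells. For Fbln1 they were 0.97 in mesenchyme-like and -2.17 in epithelial-like cells. Summed over the 10 genes they were 1.78 in mesenchyme-like, 2.16 in endothelial-like and -0.38 in epithelial-like cells. With 1 library a stage, the difference between the classes was not tested. In epithelial-like cluster 2, with cells at both stages, the interval of the ratio held 1 for Mfap2 (1.12, 0.486 to 2.46) and for Fbln1 (0.537, 0.157 to 1.49). The summed ratio of the 10 genes was 1.53 (0.965 to 2.41) within cluster 2 and 1.92 (0.791 to 6.07) within epithelial-like cluster 6. Both lay above 1, unlike the ratio over all epithelial-like cells, with intervals that held 1. In E16, 1 cell held 73.5% of the smooth muscle-like Mfap2, and without it the direction there turned (ratio 1.92, 0.969 to 3.74).

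Barcodes under 200 detected genes entered no comparison, and they held UMIs of the 10 genes too. With haemoglobin left out of the totals, the summed level there was 661 CPM in E16 (15 UMIs, interval 370 to 1091) and 2077 CPM in P4 (71 UMIs, 1622 to 2620), against 1305 and 3654 CPM in the kept cells. The P4 level in macrophage-like cells, 144 CPM, was lower than in those barcodes.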

How the results depend on the processing

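Of the 10 genes in mesenchyme-like cells, 9 kept their direction in all 14 alternatives. Eln did not, and its log2 ratio (P4 over E16), 0.32 as reported, was -0.19 at Leiden resolution 0.5, -0.16 with 1000 variable genes, -0.18 with all genes used for clustering, -0.18 without cell cycle genes, -0.18 with another random seed and -0.24 with cells thinned to 1500 UMIs. The summed log2 ratio, 1.78 as reported, stayed above 0. It was 1.66 at resolution 0.5, 1.60 with 1000 variable genes, 1.58 with all genes in the clustering, 1.67 without cell cycle genes, 1.44 with each library clustered alone, 1.58 with another seed, 1.62 with cells weighted equally, 1.88 without the cell with the most UMIs of the 10 genes in each library, 1.57 after thinning and 1.004 without cluster 3. The count of genes at least 2-fold higher in P4 lay between 4 and 8. That in E16 was 0 without the cell with the most UMIs of these genes, and 1 otherwise.

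The mesenchyme-like share of UMIs of the 10 genes, 68.3% in E16 and 86.1% in P4, was 72.9% and 87.0% with at least 500 genes, 53.1% and 83.2% at resolution 0.5, 55.6% and 81.8% with 1000 variable genes, 57.0% and 83.9% with all genes in the clustering, 53.5% and 83.2% without cell cycle genes, 57.5% and 87.6% with each library alone, 57.0% and 83.4% with another seed, and 70.4% and 87.4% without the 10% of cells with the most UMIs. Of 20 shares of cells with a UMI, 7 moved when cells were thinned to 1000 UMIs and 13 at 3000. The settings that lowered the E16 share named 76 to 78 E16 cells mesenchyme-like in place of 97.

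No paired analysis was possible because each stage is 1 library. Genes near 20 UMIs a class, such as Fbln2 and Fbln5 in E16, have wide counting intervals, and the spread between animals is not covered.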
